A study of Mus musculus with 12 samples.

Results

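Store-operated calcium entry and the related TRPC channels were followed through 8 genes in the pregnant mouse uterus: the calcium sensors Stim1 and Stim2, the channel genes Orai1, Orai2 and Orai3, and the channel genes Trpc1, Trpc4 and Trpc6. They were taken by gene symbol from a table of read counts over 24964 genes, where each matched exactly 1 row. All 8 passed the filter on low counts and were among the 15561 genes tested. The tissue was collected at 13.5 days post coitum, and 12 libraries were sequenced, 4 in each of 3 groups. Every mouse carried Myh11Cre, a Cre recombinase driven by the smooth muscle myosin gene Myh11. Control mice had this allele alone, PGR-A OE mice had the genotype Myh11Cre; LSLPGRA/+ and PGR-B OE mice Myh11Cre; LSLPGRB/+. The added alleles turn on isoform A or isoform B of the progesterone receptor where Cre is active, so the overexpression is limited to cells that have used Myh11, while the RNA came from tissue labelled only as uterine. In such bulk RNA, fewer cells of a type and less RNA per cell cannot be told apart. Strain and age of the mice were not given in the labels, nor whether the replicates of a group were separate animals, and p-values therefore measure the spread between these libraries, part of which may be technical.

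Store-operated calcium entry refills the calcium store of the endoplasmic or sarcoplasmic reticulum. STIM proteins sit in the membrane of the store, sense a fall of calcium inside it, and move to the junctions with the plasma membrane, where they open the Orai channels. TRPC channels are non-selective cation channels of the plasma membrane that open downstream of phospholipase C, the enzyme by which oxytocin and other agonists drive contraction of the myometrium, the smooth muscle of the uterus. Trpc6 responds to diacylglycerol, and Trpc4 and Trpc1 are tied to receptors coupled to Gq proteins. The study's title concerns progesterone receptor isoform B, the phospholipase C pathway and uterine contractility, which is the setting in which these genes were read.

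Stim1, Trpc4 and Trpc6 had the largest log2 differences between groups of the 8 genes, and their promoters are shown for that reason. The windows cover 300 bases around the annotated start, most of them upstream, and come from RefSeq on the build GRCm38.p6. All 8 genes matched an entry. Capitals mark each GC box, GGGCGG or its reverse complement CCGCCC, a motif bound by Sp-family factors, searched on both strands. The windows lie on the plus strand at chr7:102267569-102267868 for Stim1, chr3:54155807-54156106 for Trpc4 and chr9:8543892-8544191 for Trpc6.
Stim1: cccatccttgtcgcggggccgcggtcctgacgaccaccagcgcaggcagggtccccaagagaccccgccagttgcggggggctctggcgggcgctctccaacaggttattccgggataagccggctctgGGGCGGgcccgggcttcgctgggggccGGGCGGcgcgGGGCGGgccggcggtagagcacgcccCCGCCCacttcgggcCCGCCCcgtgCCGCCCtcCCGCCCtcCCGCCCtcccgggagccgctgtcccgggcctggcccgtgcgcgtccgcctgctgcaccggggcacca
Trpc4: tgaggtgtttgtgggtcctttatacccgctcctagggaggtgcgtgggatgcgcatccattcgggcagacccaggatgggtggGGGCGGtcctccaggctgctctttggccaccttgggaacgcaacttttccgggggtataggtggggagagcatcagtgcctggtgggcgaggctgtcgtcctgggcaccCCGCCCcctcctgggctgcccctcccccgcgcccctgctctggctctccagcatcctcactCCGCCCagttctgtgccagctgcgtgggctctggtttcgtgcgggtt
Trpc6: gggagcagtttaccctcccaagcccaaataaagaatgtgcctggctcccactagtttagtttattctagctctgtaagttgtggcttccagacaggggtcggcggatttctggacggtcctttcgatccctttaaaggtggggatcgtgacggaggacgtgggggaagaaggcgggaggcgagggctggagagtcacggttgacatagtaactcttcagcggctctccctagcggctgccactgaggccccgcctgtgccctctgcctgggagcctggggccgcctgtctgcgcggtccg
The Stim1 window held 8 GC boxes and had a GC content of 78.7%, above 98.4% of the 32851 mouse promoters of the same length. Trpc4 held 3 GC boxes and a match to the letters of the TATA box (TATAAA, either strand), and Trpc6 held neither. The Trpc4 match is the reverse form TTTATA near the upstream end of the window, is not marked, and shows only that the letters are present. Of the other windows, Trpc1, Orai1 and Stim2 held 3 GC boxes each, Orai2 held 2 and Orai3 held 1. Over all promoters, 35.7% held at least 1 GC box and 13.6% the letters of the TATA box on either strand. The hexamer TGTTCT, the core of response elements shared by the progesterone, androgen and glucocorticoid receptors, was in 0 of the 8 windows, against 19% of all promoters on either strand. Its absence says only that these letters are not in these windows.

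The libraries were of nearly equal depth, with total counts from 31872534 to 33078483. Pgr, the gene for the progesterone receptor and the check of the labels, averaged 121 CPM, the count scaled to library size, in control (SD 16.5, n = 4). PGR-A OE averaged 199.7 CPM (SD 38.5) and PGR-B OE 223 CPM (SD 26.5), each wholly above control. So lay 5.01% and 3.07% of all genes tested. Between the overexpression groups Pgr overlapped (log2 difference 0.16, adjusted p = 0.821, edgeR). A count per gene does not separate the isoforms, so which isoform each overexpression group carries was not checked. PGR-A OE replicate 4 stood apart from the other 11 libraries on the first principal component. The 10 smooth muscle markers were present in every library. Their summed level ran from 12327 to 16222 CPM in control, from 16649 to 22931 CPM in PGR-A OE and from 11982 to 15825 CPM in PGR-B OE, so the PGR-A OE libraries were above both other groups. The sums of endothelial, leukocyte, epithelial, fibroblast and neuronal markers overlapped between all groups, while single markers moved, as given beside Trpc4. Markers of trophoblast and yolk sac were near 0, with a summed level of 0.999 to 13.3 CPM and Gcm1 at 0 throughout. The decidual markers differed widely within groups. Their summed level was 7212 CPM in control replicate 4 against 619.6 to 986 CPM in the other controls, 293.7 CPM in PGR-A OE replicate 4 against 583 to 2223 CPM in the other PGR-A OE libraries, and 1192 to 1719 CPM in PGR-B OE.

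Per unit of length, the sensor Stim1 and the channel Orai3 were the most abundant of the 8 mRNAs in the control uterus and Trpc6 the least. On the scale of CPM per kilobase of the deposited gene length, control libraries held 17.4 ± 0.749 for Stim1 (SD, n = 4), 13.8 ± 0.719 for Orai3, 9.68 ± 0.517 for Stim2 and 9.53 ± 0.839 for Orai1. Orai2 followed with 3.49 ± 0.455, Trpc4 with 2.78 ± 0.566, Trpc1 with 1.45 ± 0.0901 and Trpc6 with 0.782 ± 0.0898 CPM per kilobase. The neighbours Stim2 and Orai1 overlapped in range, as did Orai2 and Trpc4, and neither pair is ordered beyond its spread. Stim1 stood above 75.4% of the genes tested on this scale and Orai3 above 69.6%, while Trpc4, Trpc1 and Trpc6 stood above 32.03%, 22.8% and 16.1%. The order rests on the length used: with the union of all annotated exons, a choice made after seeing the data, Orai3, Stim2 and Orai1 came before Stim1. That length is 10371 bases for Stim1, against 3604 bases in the deposited table.

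**Figure D1:**
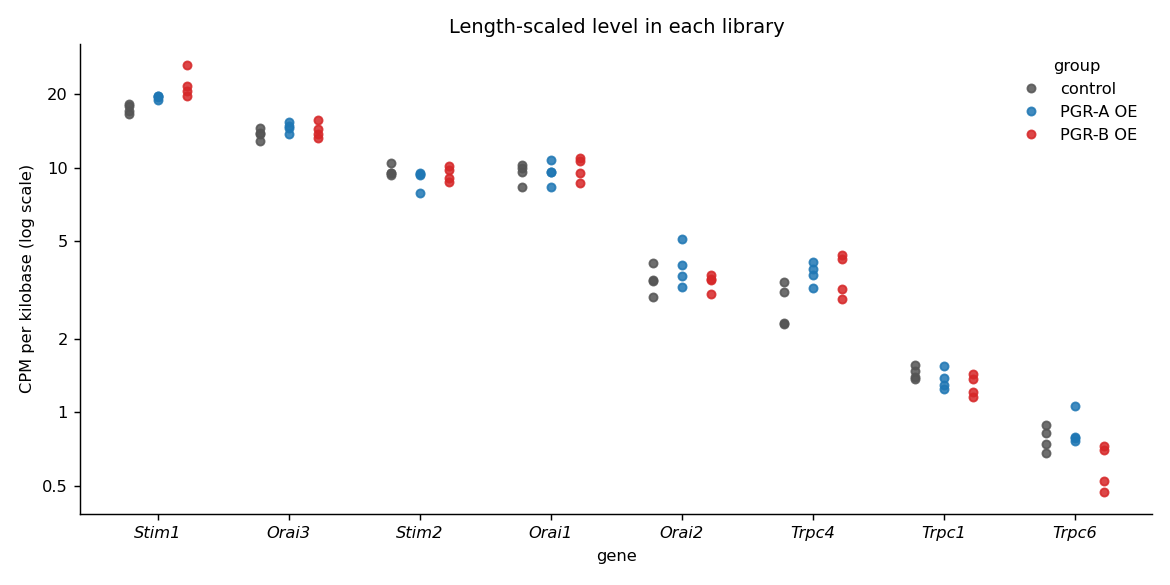
Level of the 8 genes in each of the 12 libraries, in CPM per kilobase on a log axis, with 1 point per library coloured by group. Stim1 and Orai3 sit at the top in all groups and Trpc6 at the bottom.

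Of the channel genes related to Trpc1, Trpc4 and Trpc6, Trpc5 and Trpc7 had 11 and 6 counts over all 12 libraries. Trpc2, a pseudogene in humans that serves pheromone sensing in mice, had 0 counts, which allows up to 0.00771 CPM over the 12 libraries, by counting error only. All of its 2874 exonic bases are shared with other gene models, so its count is uncertain. By mean CPM per kilobase over all libraries, in an order of 23 TRP channel genes, Trpc4 came 10th, Trpc1 11th and Trpc6 12th.

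Stim1 (chromosome 7, 102267806 to 102437319, plus strand, GRCm38), the main sensor of store calcium, was higher in every overexpression library than in every control. Control replicates 1 to 4 held 65.5, 64.6, 61.3 and 59.7 CPM, PGR-A OE replicates 70.7, 70.8, 68.2 and 70.2 CPM, and PGR-B OE replicates 74.1, 77.6, 94.4 and 70.9 CPM. Neither overexpression group overlapped the controls, and PGR-B OE replicate 3 was the highest library. Of all genes tested, 5.01% lay wholly above control in PGR-A OE and 3.07% in PGR-B OE. The means were 62.8 ± 2.699, 69.99 ± 1.19 and 79.3 ± 10.5 CPM (SD, n = 4).

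The Stim1 differences did not pass the threshold of 0.05 on the adjusted p by edgeR, and DESeq2 called 1 of them. PGR-B OE was above control by 0.34 on the log2 scale (SE 0.08, 95% interval 0.16 to 0.52, unadjusted p = 0.00144, adjusted p = 0.163), a 1.26-fold difference, in edgeR's quasi-likelihood fit, Benjamini-Hochberg adjusted over all genes tested. DESeq2 called this difference, with an adjusted p of 0.0210, among 221 calls over the 15561 genes tested. Over all 15 alternatives run the adjusted p ran from 0.0210 to 0.354. PGR-A OE was above control by 0.16 (SE 0.08, 95% interval -0.02 to 0.34, adjusted p = 0.382, edgeR). PGR-B OE was above PGR-A OE by 0.18 (SE 0.08, 95% interval 0.00 to 0.36, adjusted p = 0.620, edgeR), and these groups were separated only by the step from 70.8 to 70.9 CPM. Without PGR-B OE replicate 3 the log2 difference was 0.24 against control and 0.08 against PGR-A OE.

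Stim2 (chromosome 5, 53998499 to 54121057, plus strand), the sensor that responds to smaller losses of store calcium, overlapped in level between the 3 groups. Control replicates 1 to 4 held 46.8, 51.5, 46.7 and 45.9 CPM, PGR-A OE replicates 46.7, 46.3, 46.3 and 38.9 CPM, and PGR-B OE replicates 43.1, 48.2, 49.98 and 44.9 CPM. The groups overlapped, and PGR-A OE replicate 4 was the lowest library. The log2 difference was -0.10 in PGR-A OE (95% interval -0.27 to 0.07, adjusted p = 0.563) and -0.04 in PGR-B OE (95% interval -0.20 to 0.13, adjusted p = 0.923), from edgeR's quasi-likelihood fit. Without PGR-A OE replicate 4 the PGR-A OE difference was -0.040.

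The ratio of the sensors was higher in the overexpression libraries than in control, while which sensor led rested on the gene length used. The ratio of Stim1 to Stim2, from CPM per kilobase, was 1.80 ± 0.0824 in control (SD, n = 4; range 1.72 to 1.91), 2.16 ± 0.209 in PGR-A OE (2.02 to 2.47) and 2.33 ± 0.192 in PGR-B OE (2.16 to 2.59). Both overexpression groups lay above the controls on this ratio and overlapped each other. Stim1 by itself also lay wholly above control, as did 5.01% of all genes tested in PGR-A OE and 3.07% in PGR-B OE. How often ratios of other genes separate in this way was not counted. With the union of annotated exons as length, added after seeing the data, the ratio was 0.651 ± 0.0298 in control, 0.782 ± 0.0754 in PGR-A OE and 0.841 ± 0.0693 in PGR-B OE, so that Stim2 led; the order of the groups does not depend on the length. The highest PGR-A OE ratio was that of replicate 4, the library with low Stim2. The ratio was chosen after earlier results of these data were known and was not tested.

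**Figure D2:**
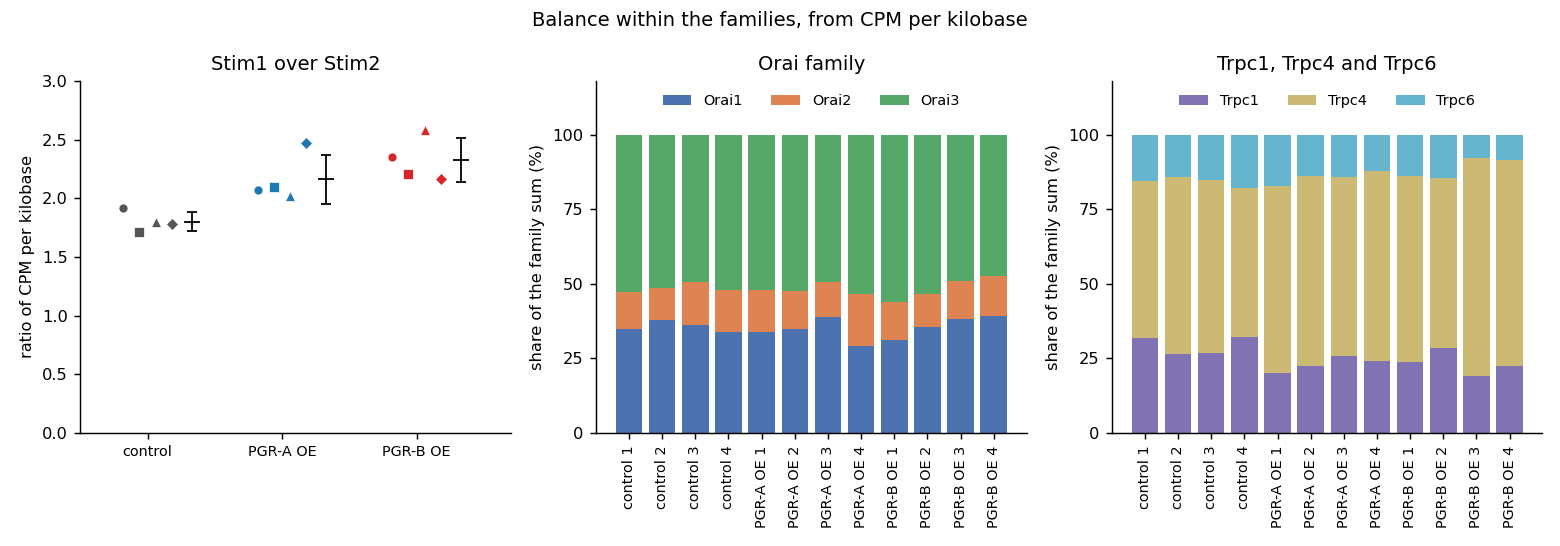
Left, ratio of Stim1 to Stim2 in each library with the group mean and SD (n = 4 per group). Middle and right, stacked bars of the share of each gene in the sum of the Orai genes and in the sum of Trpc1, Trpc4 and Trpc6 in each library, all from CPM per kilobase. All overexpression ratios are above the highest control ratio of 1.91, and Orai3 holds the largest Orai share in every library.

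The pore-forming Orai genes overlapped in level between all groups. Orai1 (chromosome 5, 123015074 to 123030456, plus strand), the principal store-operated channel subunit, held 17.9, 19.1, 18.7 and 15.6 CPM in the controls, 17.9, 18.0, 20.2 and 15.6 CPM in PGR-A OE and 16.2, 17.8, 19.9 and 20.5 CPM in PGR-B OE. The groups covered nearly the same range. It shares 7 exonic bases with an antisense gene model. Its log2 difference from control was 0.01 in PGR-A OE (95% interval -0.22 to 0.23, adjusted p = 0.978) and 0.06 in PGR-B OE (95% interval -0.16 to 0.29, adjusted p = 0.903), from edgeR's quasi-likelihood fit. Without PGR-A OE replicate 4 the former was 0.069.

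Orai3 (chromosome 7, 127769815 to 127775150, plus strand), a subunit found in mammals, was the most abundant Orai mRNA. Its control libraries held 29.1, 27.8, 27.3 and 25.6 CPM, its PGR-A OE libraries 29.5, 28.95, 27.4 and 30.6 CPM, and its PGR-B OE libraries 31.1, 28.6, 27.4 and 26.5 CPM. The groups overlapped. For PGR-A OE the log2 difference from control was 0.08 (95% interval -0.07 to 0.24, adjusted p = 0.591, edgeR). For PGR-B OE the log2 difference was 0.05 (95% interval -0.10 to 0.20, adjusted p = 0.883, edgeR).

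Orai2 (chromosome 5, 136147459 to 136170713, minus strand), which tempers currents when joined with the other subunits, was the least abundant of the family. The controls held 13.4, 11.4, 15.7 and 13.2 CPM, the PGR-A OE libraries 15.4, 13.8, 12.5 and 19.7 CPM, and the PGR-B OE libraries 13.5, 11.7, 13.4 and 14.1 CPM. PGR-A OE replicate 4 was the highest library, and the groups overlapped. The log2 difference was 0.19 in PGR-A OE (95% interval -0.11 to 0.49, adjusted p = 0.536) and -0.03 in PGR-B OE (95% interval -0.33 to 0.27, adjusted p = 0.972), from edgeR's quasi-likelihood fit. Leaving out PGR-A OE replicate 4 lowered the PGR-A OE difference to 0.051. As shares of the family sum in CPM per kilobase, Orai1, Orai2 and Orai3 held 35.6%, 13.1% and 51.4% in control, 34.1%, 14.1% and 51.8% in PGR-A OE, and 36.0%, 12.4% and 51.6% in PGR-B OE. The size of these shares rests on the deposited gene length.

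**Figure D3:**
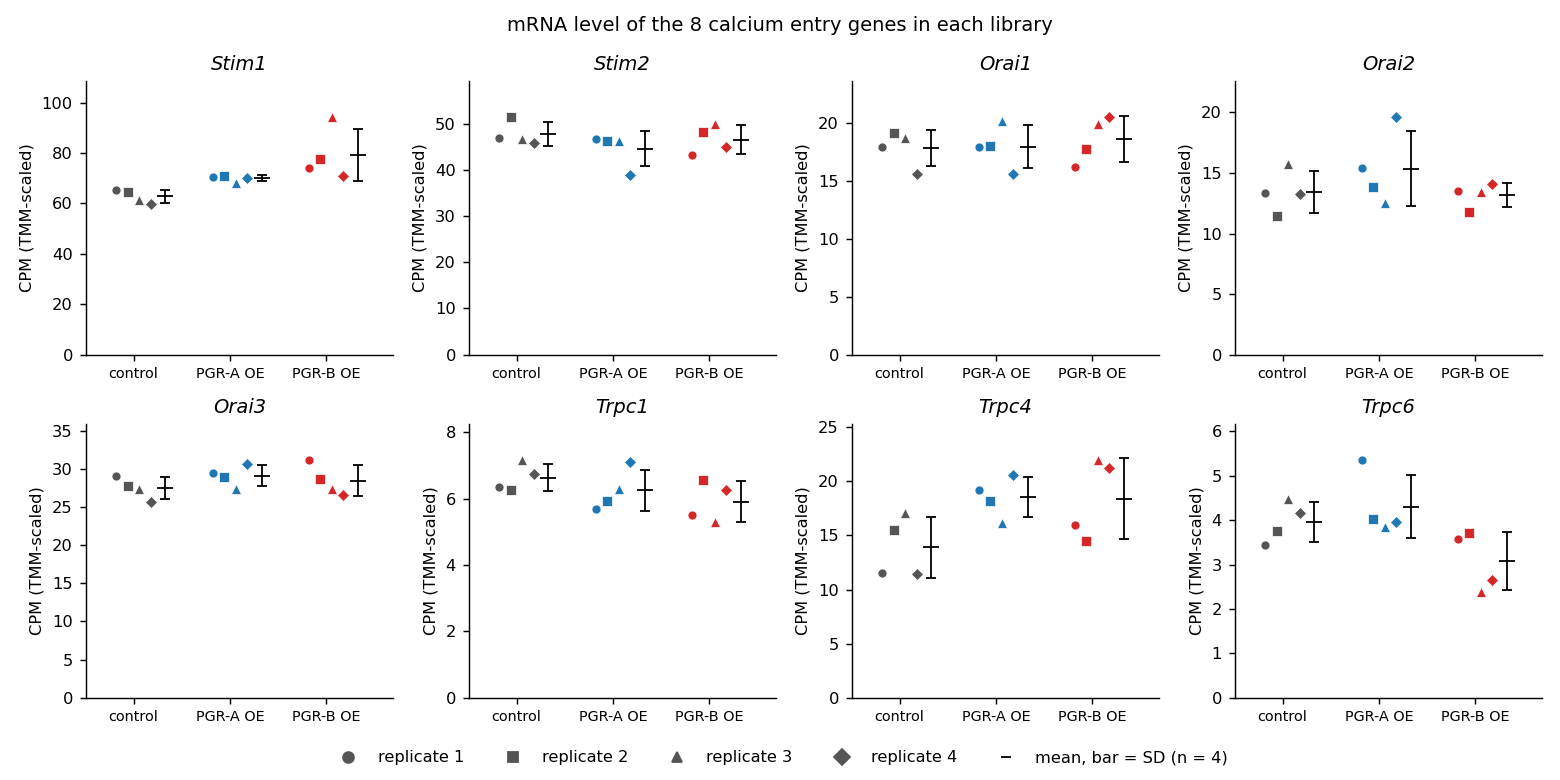
CPM of each of the 8 genes in each library, with 1 panel per gene, marker shape for the replicate number, and the group mean with its SD (n = 4) in black; the vertical axes start at 0 and differ between panels. Stim1 in both overexpression groups is above the highest control of 65.5 CPM, and Trpc6 in PGR-B OE is below the lowest PGR-A OE library.

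Trpc4 (chromosome 3, 54156035 to 54318471, plus strand), a channel subunit opened through Gq and Gi coupled receptors, was on average higher in both overexpression groups, with overlap. The controls held 11.6, 15.5, 17.1 and 11.5 CPM, a wide spread. PGR-A OE libraries held 19.2, 18.2, 16.2 and 20.6 CPM and PGR-B OE libraries 15.96, 14.5, 21.98 and 21.2 CPM. In PGR-A OE 3 of the 4 libraries were above the highest control, and in PGR-B OE 2 of 4 were.

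On the log2 scale the Trpc4 difference was 0.42 for PGR-A OE (SE 0.16, 95% interval 0.06 to 0.77, unadjusted p = 0.0259, adjusted p = 0.264) and 0.41 in PGR-B OE (SE 0.16, 95% interval 0.05 to 0.76, unadjusted p = 0.0293, adjusted p = 0.477), in edgeR's quasi-likelihood fit, Benjamini-Hochberg adjusted. Neither passed, and both comparisons use the same control libraries. Between the overexpression groups the difference was -0.01 (95% interval -0.37 to 0.34, adjusted p = 0.991, edgeR). In PGR-A OE the smooth muscle markers were higher beside Trpc4 and Stim1: 10 of 10 markers had a positive log2 difference, with a median of 0.30. None passed by edgeR's test or limma voom. By edgeR 4 had an unadjusted p under 0.05, against 15.4% of all genes tested. DESeq2 called 3 (Myh11, Des and Synm), against 564 of the 15561 genes tested. In PGR-B OE 3 of 10 were positive, with a median of -0.08. The fibroblast marker Col15a1 was higher in PGR-A OE by 0.90 (adjusted p = 0.0392, edgeR) and was also called by DESeq2 and limma voom. Its difference of 0.75 in PGR-B OE was called by DESeq2 alone (adjusted p = 0.128, edgeR). Of the 5 fibroblast markers, 3 had a positive log2 difference in PGR-A OE, with a median of 0.016. In PGR-B OE 3 of 5 were positive as well, with a median of 0.031. All 6 endothelial markers were positive in PGR-A OE, and none passed by edgeR or limma voom. By edgeR 2 had an unadjusted p under 0.05, against the same 15.4%, and DESeq2 called Vwf (0.64) among its 564 calls. Epithelial markers went the other way, with 1 of 6 positive in PGR-A OE (median -0.19) and 1 of 6 in PGR-B OE (median -0.10). None of them passed by any tool, and by edgeR 1 had an unadjusted p under 0.05 in PGR-A OE. Of 4 decidual markers tested, 2 were positive in each overexpression group, and none passed. The part of muscle, fibroblast, endothelial, epithelial and decidual content in the levels of Trpc4 and Stim1 was not tested.

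Trpc6 (chromosome 9, 8544142 to 8680741, plus strand), a channel subunit opened by diacylglycerol, was the only one of the 8 whose mean was lower in PGR-B OE than in both other groups by more than 0.3 on the log2 scale. Control replicates 1 to 4 held 3.45, 3.75, 4.48 and 4.17 CPM, PGR-A OE replicates 5.36, 4.03, 3.85 and 3.97 CPM, and PGR-B OE replicates 3.57, 3.70, 2.38 and 2.66 CPM. Every PGR-B OE library was below every PGR-A OE library, as for 2.35% of all genes tested. Of the 4 PGR-B OE libraries 2, replicates 3 and 4, were below the lowest control. These levels rest on 74 to 184 counts per library, for which counting alone gives a coefficient of variation of 8.36% to 10.0%, against 11.5%, 16.5% and 21.2% observed within the same groups in the order given.

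The Trpc6 difference between PGR-B OE and PGR-A OE was -0.48 on the log2 scale (SE 0.18, 95% interval -0.87 to -0.10, unadjusted p = 0.0184, adjusted p = 0.528), in edgeR's quasi-likelihood fit, Benjamini-Hochberg adjusted. Against control it was -0.36 in PGR-B OE (SE 0.18, 95% interval -0.75 to 0.02, adjusted p = 0.567) and 0.12 in PGR-A OE (95% interval -0.26 to 0.50, adjusted p = 0.791), also by edgeR, and none passed. The PGR-A OE value rested on replicate 1, without which it was -0.0050. With libraries scaled by total count alone, the PGR-B OE libraries (2.27 to 3.74 CPM) overlapped the PGR-A OE libraries (3.66 to 5.60 CPM), and so did those of Stim1. In the same comparison 0 of 10 smooth muscle markers had a positive log2 difference, with a median of -0.40. None of these markers passed by edgeR or limma voom. In edgeR's test 7 were at an unadjusted p under 0.05, against 8.04% of all genes tested. DESeq2 called 2 of the markers (Des and Synm), against 126 of the 15561 genes tested. Their part in the Trpc6 difference was not tested. Trpc6 lies 219.1 kb from Pgr on chromosome 9.

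Trpc1 (chromosome 9, 95705082 to 95750375, minus strand), a subunit that joins other TRPC proteins, overlapped between all groups. The controls held 6.35, 6.26, 7.17 and 6.73 CPM, the PGR-A OE libraries 5.68, 5.92, 6.29 and 7.11 CPM, and the PGR-B OE libraries 5.52, 6.57, 5.28 and 6.27 CPM. PGR-B OE replicates 1 and 3 were the lowest libraries. The log2 difference was -0.08 in PGR-A OE (95% interval -0.33 to 0.16, adjusted p = 0.765) and -0.16 in PGR-B OE (95% interval -0.41 to 0.08, adjusted p = 0.716), from edgeR's quasi-likelihood fit. With PGR-A OE replicate 4 left out, the PGR-A OE difference was -0.15.

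Within the sum of these 3 channels, in CPM per kilobase, Trpc4 held 55.2% ± 4.48 in control (SD, n = 4), 62.6% ± 1.64 in PGR-A OE and 65.5% ± 6.99 in PGR-B OE. Trpc6 held 15.7% ± 1.59, 14.3% ± 2.12 and 11.1% ± 3.44. The ratio of Trpc4 to Trpc6 was 3.56 ± 0.607 in control, 4.44 ± 0.682 in PGR-A OE and 6.49 ± 2.64 in PGR-B OE. The PGR-B OE mean was set by replicates 3 and 4, at 9.35 and 8.08, since replicates 1 and 2, at 4.54 and 3.97, lay within the range of the PGR-A OE libraries. The size of these shares and of the ratio rests on the deposited lengths of 4574 bases for Trpc1 and 4992 for Trpc4. The union of exons is 8030 and 8032 bases for them, while Trpc6 has 5066 bases by either length.

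Read over all 3 comparisons, the 8 genes gave no call by edgeR and 1 by DESeq2. For PGR-A OE against control, 0 of 8 passed by edgeR's quasi-likelihood test, against 0.655% of all genes tested. By DESeq2 and by limma voom 0 of 8 passed as well, where these tools called 564 and 95 of the 15561 genes tested. By edgeR 1 of 8 (Trpc4) had an unadjusted p under 0.05, against 15.4%. For PGR-B OE against control, 0 of 8 passed by edgeR or limma voom, against 0.308% of all genes tested by edgeR. DESeq2 called 1 of 8 (Stim1), against 221 of the 15561 genes tested. By edgeR 2 of 8 (Stim1 and Trpc4) had an unadjusted p under 0.05, against 9.28%. For PGR-B OE against PGR-A OE, 0 of 8 passed by any of these tools, against 0.116% of all genes tested by edgeR. DESeq2 called 126 and limma voom 21 of the 15561 genes tested there. By edgeR 2 of 8 (Stim1 and Trpc6) had an unadjusted p under 0.05, against 8.04%.

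Groups without overlap were counted as well. In PGR-A OE, 1 of 8 genes (Stim1) lay wholly above control, against 5.01% of all genes tested, and 0 of 8 wholly below, against 5.57%. In PGR-B OE, 1 of 8 (Stim1) lay wholly above control, against 3.07%, and 0 of 8 wholly below, against 2.60%. Between the overexpression groups, 1 of 8 (Stim1) lay wholly higher with isoform B, against 1.50%, and 1 of 8 (Trpc6) wholly lower, against 2.35%. The median log2 difference of the 8 was 0.10, 0.01 and -0.02 in these comparisons, beside 0.00051, -0.0052 and 0.0045 over all genes tested. The difference was positive for 6, 4 and 3 of the 8. The comparisons share libraries, so their values are not independent of each other.

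**Figure D4:**
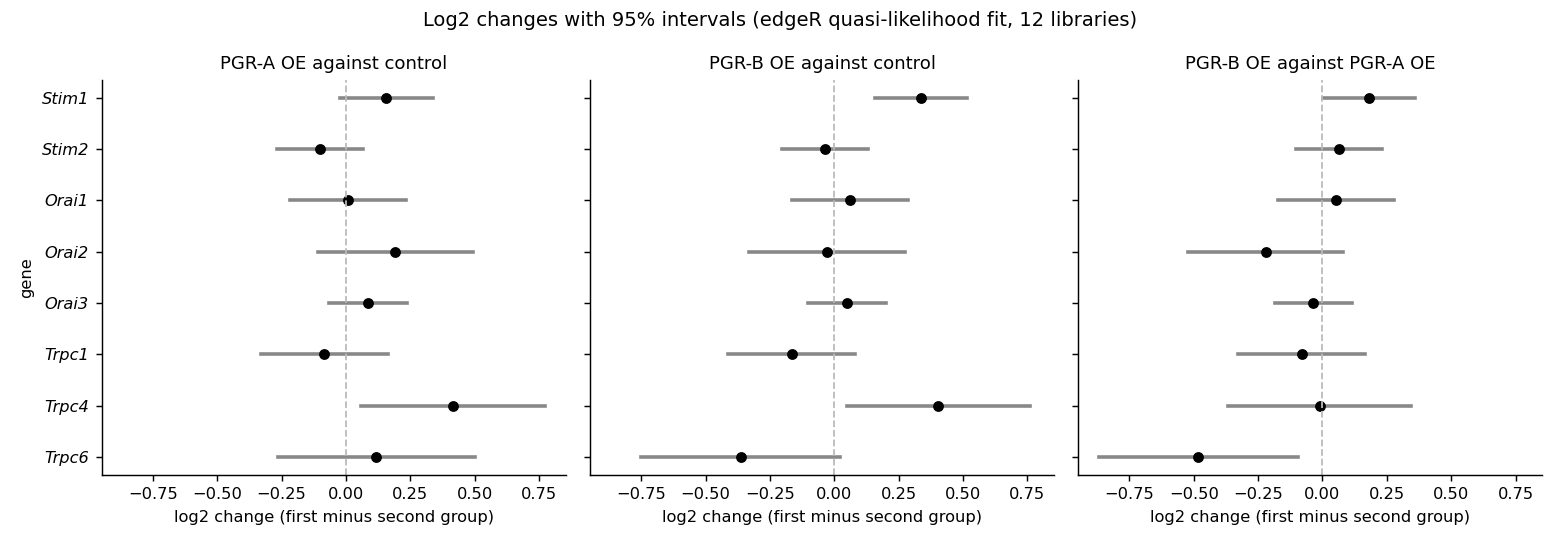
Log2 difference (points) and 95% interval (bars) of each of the 8 genes in the 3 comparisons, from the edgeR fit over 12 libraries, with a dashed line at 0. The intervals of Stim1 in PGR-B OE and of Trpc4 in both overexpression groups against control, and of Trpc6 and Stim1 between the overexpression groups, lie off 0 before adjustment for the number of genes tested.

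The rest of the pathway showed no gene past the threshold by edgeR. The 5 lists read were TRP channels outside the TRPC family (12 of 16 genes tested), regulators of STIM and Orai (18 of 20), channels that release stored calcium (7 of 7), pumps and exchangers that refill the store or expel calcium (11 of 12), and calcineurin with its NFAT targets and inhibitors (11 of 12). By edgeR's quasi-likelihood test and by limma voom 0 genes of any list passed in any comparison. Of all genes tested, edgeR called 0.655% for PGR-A OE against control, 0.308% for PGR-B OE against control and 0.116% between the overexpression groups. The lists are too small for 0 calls to differ from these shares. DESeq2 called 1, Cav1, between the overexpression groups, where it called 126 of the 15561 genes tested. At an unadjusted p under 0.05 by edgeR there were, in that order, 0, 1, 1, 1 and 2 genes for PGR-A OE against control, beside 15.4% of all genes tested. The counts were 0, 3, 1, 0 and 1 for PGR-B OE against control, beside 9.28% of all genes tested. Between the overexpression groups they were 1, 3, 1, 1 and 1, beside 8.04%. List medians stayed between -0.18 and 0.08 for these lists.

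Among the regulators, Saraf, which switches STIM1 off after refilling, averaged 131 CPM (SD 6.04, n = 4) in control and 151.9 CPM (SD 11.7) in PGR-B OE, a log2 difference of 0.21 that did not pass (unadjusted p = 0.00951, adjusted p = 0.358, edgeR). Esyt2, a tether between the reticulum and the plasma membrane, differed by -0.29 (adjusted p = 0.423, edgeR) in the same comparison. Cav1, the caveolar scaffold on which TRPC channels gather, was lower in every PGR-B OE library than in every PGR-A OE library, at 348 ± 53.1 against 464 ± 39.4 CPM. Its log2 difference was -0.41 (unadjusted p = 0.00173, adjusted p = 0.263, edgeR, and adjusted p = 0.0243, DESeq2). Of all genes tested, 2.35% lay wholly lower in that comparison. There 0 of 10 smooth muscle markers and 0 of 6 endothelial markers had a positive log2 difference. The part of muscle and endothelial content in the differences of Cav1 and the other listed genes between these groups was not tested. In PGR-A OE, Tmco1, a calcium leak channel of the reticulum, differed from control by -0.21 (adjusted p = 0.286, edgeR). It lay wholly below control there, as did 5.57% of all genes tested. Adcy8, a calcium-stimulated adenylyl cyclase, was low at 1.82 ± 0.425 CPM in PGR-A OE against 1.07 ± 0.315 in control (log2 difference 0.76, adjusted p = 0.348, edgeR).

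Of the other TRP channels, Trpv2, a channel of stretch and heat, differed by -0.29 between PGR-B OE and PGR-A OE (adjusted p = 0.508, edgeR). Trpm7, a channel with a kinase domain, differed from control by -0.17 in PGR-A OE (adjusted p = 0.368) and -0.12 in PGR-B OE (adjusted p = 0.723), by edgeR. The lysosomal channel genes Mcoln1 (-0.16 for PGR-A OE against control) and Mcoln2 (-0.43 for PGR-B OE against PGR-A OE) did not pass either. Trpm3, which shares 628 exonic bases with other gene models, was 0.52 above control in PGR-B OE (adjusted p = 0.569, edgeR).

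Of the release channels, the inositol trisphosphate receptor gene Itpr2 was at 14.8 ± 1.98 CPM in control, 18.4 ± 1.93 in PGR-A OE and 18.5 ± 2.77 in PGR-B OE. Its log2 differences of 0.32 and 0.32 from the same controls did not pass (adjusted p = 0.269 and 0.467, edgeR). Itpr2 lay wholly above control in PGR-A OE, as did 5.01% of all genes tested, and overlapped control in PGR-B OE. The ryanodine receptor gene Ryr3, which shares 916 exonic bases with other gene models, differed by -0.58 between PGR-B OE and PGR-A OE (adjusted p = 0.523, edgeR), by 0.26 between PGR-A OE and control and by -0.32 between PGR-B OE and control. Mrvi1, a brake on inositol trisphosphate receptors, differed by -0.34 between the overexpression groups (adjusted p = 0.634, edgeR) and shares 108 exonic bases with other gene models.

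Among pumps and exchangers, the plasma membrane calcium pump gene Atp2b4 differed on the log2 scale by 0.42 between PGR-A OE and control (adjusted p = 0.251, edgeR) and by -0.41 between PGR-B OE and PGR-A OE (adjusted p = 0.556, edgeR). The genes of low level Slc8a3 (0.42 for PGR-A OE against control) and Slc8a2 (-0.42 for PGR-B OE against PGR-A OE), both sodium-calcium exchangers, did not pass, nor did Atp2b2 (0.47) and Slc8b1 (-0.18) in PGR-B OE against control. On the calcineurin side, Rcan2, an inhibitor of calcineurin, averaged 6.31 CPM (SD 1.46, n = 4) in control and 9.38 CPM (SD 1.04) in PGR-A OE. Its PGR-A OE libraries lay wholly above control, as did those of 5.01% of all genes tested. The log2 difference was 0.57 (unadjusted p = 0.00762, adjusted p = 0.169, edgeR). In PGR-B OE Rcan2 averaged 6.83 CPM (SD 1.38). Nfatc4 differed by 0.41 in PGR-A OE (adjusted p = 0.264, edgeR) and Nfatc1 by -0.19 in PGR-B OE (adjusted p = 0.492, edgeR). Ppp3cb, a catalytic subunit of calcineurin, differed by -0.20 between PGR-B OE and control, and the inhibitor Rcan1 by -0.24 between PGR-B OE and PGR-A OE; neither passed.

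**Figure D5:**
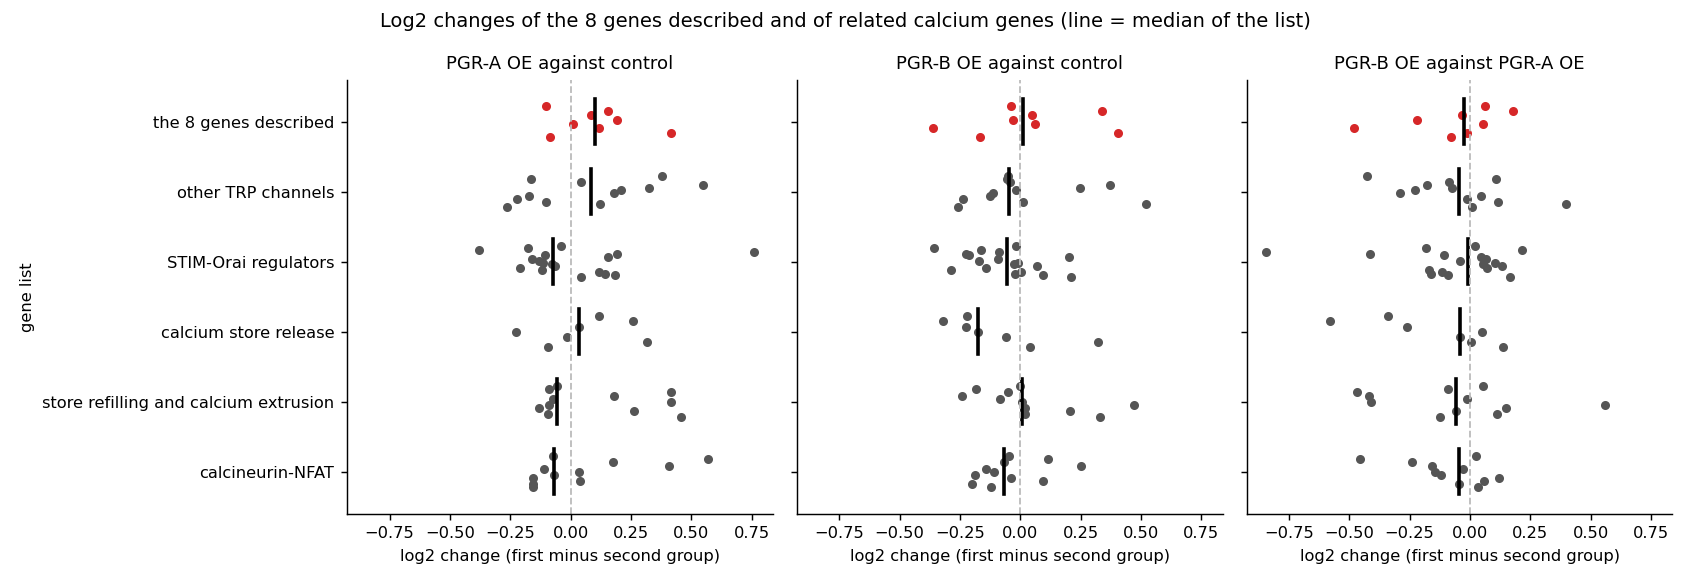
Log2 difference of each tested gene in the 3 comparisons, 1 point per gene, for the 8 genes described (red) and 5 lists of related calcium genes (grey), with the median of each list as a black line and a dashed line at 0. The points of every list fall on both sides of 0, and the medians of the 8 genes are 0.10, 0.01 and -0.02.

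The genes whose log2 CPM followed each of the 8 most closely over the 12 libraries were sought among 13293 named genes with a mean of at least 1 CPM. The Pearson correlations describe these libraries, which share depth, group and tissue make-up. With so many genes compared over 12 points, high values arise readily, and nothing is drawn from them about function. Stim1 was followed by Naip1 (r = 0.900), Slc25a30 (0.868) and Sipa1l1 (0.860), and Stim2 by Galnt3 (0.964), Vps13c (0.949) and Manba (0.943). Orai1 was followed by Gfm2 (0.886), Acp5 (0.874) and Tmem8 (0.868), Orai2 by Vps13d (0.926), Ankrd16 (0.913) and Man2a2 (0.912), and Orai3 by Pde4d (0.923), Efnb1 (0.916) and Dzip1 (0.899). Trpc1 was followed by Myom1 (0.945), Socs2 (0.931) and Cryz (0.910), Trpc4 by Cbx7 (0.884), Rasl11b (0.869) and Csf3 (0.868), and Trpc6 by Ccdc69 (0.937), Plat (0.908) and Elk3 (0.879). None of these nearest genes was another of the 8.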

How the data were processed

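RNA of uterine tissue was sequenced in paired-end reads of 75 bp after a TruSeq RNA preparation, per the labels' protocols, and sample titles gave groups and replicate numbers. The authors deposited 1 table of read counts per gene, not normalized, with a gene length in bases. The submitters' processing notes name STAR 2.7.0f, Bowtie2 2.2.5, Subread 1.6.4, DESeq2 and featureCounts, with GRCm38 and mm10 as builds. Roles of the tools, annotation, strand use and multi-mapping were not given in the sources used here, so counts of overlapping genes are uncertain. DESeq2 is used here only as an alternative.

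Of 24964 genes, 4393 had no count. In R 4.3.3, edgeR 4.0.16 kept 15561 genes (filterByExpr), scaled libraries by TMM and fitted all 12 libraries in 1 robust quasi-likelihood model. Benjamini-Hochberg adjustment covered all genes tested, a gene was called at an adjusted p under 0.05, and 95% intervals came from the same fit. CPM used TMM-scaled library sizes. CPM per kilobase used the deposited length. Positions and overlaps came from GENCODE (GRCm38), matched by symbol. Alternatives were DESeq2 1.42.0, limma 3.58.1 with voom, RLE scaling, no filter, only the 8 libraries compared, a replicate block, other lengths and leaving out each replicate. Of 18 pairs of libraries within groups, 0 were identical or differed by no more than sampling noise.

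The 8 genes and all lists were chosen with earlier results of these data known. Named were the 8 genes, Pgr, per list any gene past the threshold and otherwise the 2 with the lowest p in each comparison, and per gene the 3 most alike. Some results that this rule names are not reported here.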

Additional observations from a re-analysis of the deposited data

Results flagged for a closer look

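In groups of 4 libraries, a library was singled out when its gap to the nearest other library, divided by the range of the group, was above the 95% critical value of Dixon's test. This was looked at in 57 groups, 3 stood out, and chance alone gives about 1 in 20. Trpc6 in PGR-A OE replicate 1 was at 5.36 CPM, against 3.85 to 4.03 CPM in the other PGR-A OE libraries (ratio 0.884). Stim2 in control replicate 2 was at 51.5 CPM, against 45.9 to 46.8 CPM in the other controls (ratio 0.830). Stim2 in PGR-A OE replicate 4 was at 38.9 CPM, against 46.3 to 46.7 CPM in the other PGR-A OE libraries (ratio 0.939). That library also stood apart over all genes, at 62.4 on the first principal component, where the next most extreme library, control replicate 4, was at -31.0.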

How the results depend on the processing

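The 24 log2 differences of the 8 genes were recomputed under 344 alternatives, of which 332 kept direction and side of the threshold. DESeq2 called 1 of the 8 in PGR-B OE against control, Stim1, and no other alternative called any of them; leaving out a replicate gave 0 calls each time. The other 11 alternatives changed a sign when a replicate was left out. The ranges in those fits were -0.0050 to 0.18 for Trpc6 and -0.051 to 0.069 for Orai1 in PGR-A OE against control, -0.070 to 0.0051 for Stim2 and -0.095 to 0.055 for Orai2 in PGR-B OE against control, and -0.11 to 0.091 for Trpc4 and -0.0075 to 0.12 for Orai1 between the overexpression groups. Over all genes edgeR called 102, 48 and 18 in the 3 comparisons and DESeq2 564, 221 and 126. The higher share moved as well, with 75 of 102 higher by edgeR and 296 of 564 by DESeq2 in PGR-A OE, and 44 of 48 and 145 of 221 in PGR-B OE. A fit of only the 8 libraries compared gave 63 calls in PGR-A OE and 10 between the overexpression groups. Without PGR-A OE replicate 4 in the shared fit, added after seeing the data, PGR-B OE gave 100 calls. Leaving out each replicate gave 32 to 99, 22 to 48 and 11 to 31 calls. The cause was not tested. In the order by length-scaled level, 6 of 8 genes kept their place with the longest transcript as length, 4 with the union of exons, also added later, and 6 to 8 without a replicate. With the replicate number as a block, edgeR called 69, 32 and 11 genes and 0 of the 8. Same-numbered libraries deviated from their group means with correlations from -0.26 to 0.19, 1 of 12 above 0.1. In both other groups at once, a strict demand, 0 libraries matched their own number best. The labels do not say whether the numbers pair the libraries, and this check on 4 libraries a group cannot exclude it.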

Other observations

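Trpv6, an epithelial calcium channel named here after its values were seen, was the most abundant TRP channel mRNA, with a mean of 78.7 CPM per kilobase over the 12 libraries, against 22.2 for Pkd2. It was also variable within groups. Control replicates 1 to 4 held 86.7, 124, 181 and 344 CPM, PGR-A OE replicates 384, 342, 277 and 74.5 CPM, and PGR-B OE replicates 209, 282, 127 and 333 CPM. The log2 differences of 0.55 and 0.37 from control did not pass by edgeR's quasi-likelihood test. The lowest library was PGR-A OE replicate 4, which also had the lowest Trpm6, a magnesium and calcium channel gene, at 33.9 CPM against 53.2 to 90.9 CPM in the other 11 libraries. Stim1 in that library was at 70.2 CPM, within the range of 68.2 to 70.8 CPM of the other PGR-A OE libraries.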
